A study of Mus musculus with 106 samples.

Results

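The interferon regulatory factors (IRFs) are DNA-binding proteins that switch interferon and inflammatory genes on or off, and 8 of their genes, Irf1, Irf2, Irf3, Irf4, Irf5, Irf7, Irf8 and Irf9, were read here out of 21938 protein-coding genes of the mouse. The genes were chosen by family name and not by their signal. For each gene the promoter was taken as every position within 1000 bp of any of its annotated start sites in GRCm38, and the locus as the gene body with 20 kb on either side, which held 23 distal regions of histone H3 lysine 27 acetylation (H3K27ac) out of 27656 distal regions in the whole genome.

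IRFs share a helix-turn-helix DNA-binding domain that recognises repeated GAAA elements in the promoters of interferon-responsive genes. Irf3, Irf5 and Irf7 are activated by kinases downstream of pathogen sensors, Irf9 acts in the response to type I interferon, and Irf1, Irf2, Irf4 and Irf8 act largely through their abundance and their partners, among them PU.1. Irf8 is needed for the monocyte and dendritic lineages in bone marrow, Irf1 is a classical target of interferon-γ, and Irf5 drives inflammatory cytokine genes in macrophages.

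The study asked whether diabetes leaves a lasting chromatin mark in bone marrow stem cells and in the macrophages grown from them. Chromatin immunoprecipitation sequencing (ChIP-seq) of H3K27ac, a mark of active promoters and enhancers, and of histone H3 lysine 4 trimethylation (H3K4me3), a mark of promoters, gave 70 peak lists, 35 for each mark. All mice were C57BL/6J aged 12 to 14 weeks at assignment, and diabetes was induced with streptozotocin at 42 to 45 mg/kg per day for 5 days, with tissue taken 6 weeks after the last injection. Control mice were not made diabetic. The cells labelled haematopoietic stem cells (HSC) were bone marrow freed of lineage-committed cells by magnetic depletion, so they are an enriched progenitor pool and not a purified stem cell, and they were unstimulated. Bone marrow-derived macrophages (BMDM) were grown for 7 days in medium with 5 mmol/L glucose for both kinds of donor, and were then given medium alone or lipopolysaccharide (LPS, 100 ng/mL) plus interferon-γ (IFN-γ, 10 ng/mL) for 16 h. Each mark thus has 6 groups, HSC, BMDM in medium alone (unstimulated) and BMDM given LPS+IFN-γ, each from control and from diabetic mice, with 6 libraries in each group except diabetic unstimulated BMDM, which has 5. In the study's methods n counts individual animals, whereas the labels give a number only.

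A promoter's signal is given as its percentile within its library, where 100 is the gene with the strongest peak and genes with no peak share the lowest place. Differences between groups are in normal scores, the percentiles converted to a standard normal scale, so that a difference of 1 is about as large as 1 standard deviation over all genes. The H3K27ac lists held 51162 to 176559 peaks and the H3K4me3 lists 13730 to 277213. The smallest list, of H3K4me3 in diabetic HSC replicate 6, had no peak at the promoters of Irf1, Irf3, Irf4, Irf8 and Irf9, which therefore all stand at percentile 29.6 in it.

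The labelled cell types were checked by H3K27ac at marker promoters. The mean percentile of the stem and progenitor markers was 52.9 to 58.3 in the 12 HSC libraries and 33.5 to 50.3 in the 11 unstimulated BMDM libraries, and that of the macrophage markers was 26.7 to 36.2 in HSC and 40.0 to 60.2 in unstimulated BMDM, so neither range overlapped. Erythroid markers were also higher in HSC, at 45.5 to 66.3 against 35.2 to 41.8, and their part in the differences below was not tested. In H3K4me3 the stem and progenitor markers overlapped, at 57.7 to 71.3 in HSC and 61.1 to 73.7 in unstimulated BMDM. So did the macrophage markers, at 26.1 to 43.4 and 33.1 to 52.6, and H3K4me3 did not separate the cell types at these markers. Stimulation was checked in control BMDM at 1332 H3K27ac regions that rose and 801 that fell with LPS+IFN-γ in diabetic BMDM, by the mean percentile of the first set minus that of the second. That difference was -33.9 to -6.04 in 4 control unstimulated libraries but 3.31 in replicate 5 and -4.35 in replicate 6, and -0.35 to 26.5 in 5 control LPS+IFN-γ libraries but -30.3 in replicate 5. Unstimulated replicate 5 and LPS+IFN-γ replicate 5 go against their labels. By sign alone so does LPS+IFN-γ replicate 2, at -0.35, which was not among the doubted libraries. Unstimulated replicate 6 has the sign of its label. It lies just above the range of the other 4, the nearest being replicate 1 at -6.04. The check alone therefore does not single out the doubted libraries. Unstimulated replicates 5 and 6 and LPS+IFN-γ replicate 5 were doubted from earlier results of the same data. The called control differences, and several that were not called, are also given without these 3 control BMDM libraries. Leaving out libraries that run against a stimulation response favours such a response in control BMDM. Stimulation values without the 3 are therefore no independent support for one.

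The sequences around 3 promoters and 2 distal regions on which the results turn are shown here in GRCm38.p6, the promoters as the 200 bases before the RefSeq start of the gene. All 8 genes had a RefSeq start. The Irf1 promoter (chr11:53769814-53770013, plus strand) and the Irf8 promoter (chr8:120736158-120736357, plus strand) are shown because both hold the interferon-γ activated site GAS (TTCNNNGAA, in capitals), and the Irf5 promoter (chr6:29526425-29526624, plus strand) because its H3K27ac differed most between the cell types. The distal windows are 200 bases on the plus strand at the strongest summit of an acetylated region 15747 bp upstream of Irf8 (chr8:120715169-120715368) and of one 5541 bp upstream of Irf2 (chr8:46733793-46733992).
Irf1 promoter: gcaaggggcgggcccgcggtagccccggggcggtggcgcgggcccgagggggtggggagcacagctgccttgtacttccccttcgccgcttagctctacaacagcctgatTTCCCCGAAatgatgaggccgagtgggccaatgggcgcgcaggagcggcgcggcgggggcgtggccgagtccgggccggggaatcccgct
Irf8 promoter: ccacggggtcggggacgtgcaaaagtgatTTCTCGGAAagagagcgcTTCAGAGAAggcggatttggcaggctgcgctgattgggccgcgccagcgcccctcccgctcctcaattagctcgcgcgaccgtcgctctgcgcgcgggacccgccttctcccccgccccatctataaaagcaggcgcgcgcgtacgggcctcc
Irf5 promoter: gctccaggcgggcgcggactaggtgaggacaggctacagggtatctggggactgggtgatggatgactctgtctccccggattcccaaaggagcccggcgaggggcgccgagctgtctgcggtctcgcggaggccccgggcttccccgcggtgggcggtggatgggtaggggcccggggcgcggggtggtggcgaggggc
Irf8 upstream region: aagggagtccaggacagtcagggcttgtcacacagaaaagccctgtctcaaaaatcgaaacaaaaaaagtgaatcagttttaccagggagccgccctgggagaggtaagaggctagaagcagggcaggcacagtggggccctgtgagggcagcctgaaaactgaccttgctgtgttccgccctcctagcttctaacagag
Irf2 upstream region: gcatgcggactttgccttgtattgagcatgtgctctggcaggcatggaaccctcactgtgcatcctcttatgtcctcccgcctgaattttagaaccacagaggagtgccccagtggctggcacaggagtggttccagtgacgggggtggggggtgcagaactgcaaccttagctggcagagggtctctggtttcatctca

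The windows were searched on both strands for GAS, for the interferon-stimulated element ISRE (GAAANNGAAA), for the joint PU.1 and IRF element EICE (GGAANNGAAA), for an NF-κB site (GGGANNTTCC) and for an ETS site (GAGGAAGT). The Irf1 promoter held 1 GAS, TTCCCCGAA, and the Irf8 promoter held 2, TTCTCGGAA and TTCAGAGAA, while the other 4 elements were found in none of the 5 windows shown. A GAS was present in 5.49% of 32851 promoter windows of the same length, an ISRE in 2.27%, an EICE in 1.84%, the NF-κB letters in 1.04% and the ETS letters in 2.06%. Among 27652 distal windows the shares were 3.22%, 1.03%, 0.915%, 0.618% and 1.09% in the same order. These matches describe letters in the window and not bound sites.

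H3K27ac was present at nearly every IRF promoter in every cell state. A promoter peak was found in all 35 libraries for 7 of the 8 genes and in 33 for Irf4. Over all genes the median of the 70 lists of both marks had one at 69.9%. Irf4 is a factor of activated lymphocytes and of alternatively activated macrophages. Irf2, which often represses the genes that Irf1 activates, had the strongest promoter, with a median percentile of 92.7 over the 35 libraries and a peak among the 10000 strongest of the list in all 35. In the median of the 70 lists of both marks 41.0% of all genes had such a peak. Irf5 (86.7), Irf1 (81.7) and Irf3 (69.0) followed, then Irf7 (59.8), Irf8 (57.8) and Irf9 (56.7), and Irf4 was weakest at 44.1, with a peak among the 10000 strongest in 1 library only. These are percentiles of the strongest peak over each gene's start sites, which in Irf2 spread over 75273 bp. The start sites number 2 for Irf4, 6 for Irf5 and Irf8, 7 for Irf9, 10 for Irf1 and Irf2, 11 for Irf7 and 13 for Irf3. The ranges of neighbours in this order overlapped, as for Irf7 (41.5 to 93.7), Irf8 (40.7 to 74.9) and Irf9 (40.9 to 82.6). Irf1 has the start of Gm17334 within 1000 bp, and Irf3 that of Bcl2l12, so a peak there cannot be assigned to 1 gene.

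**Figure D1:**
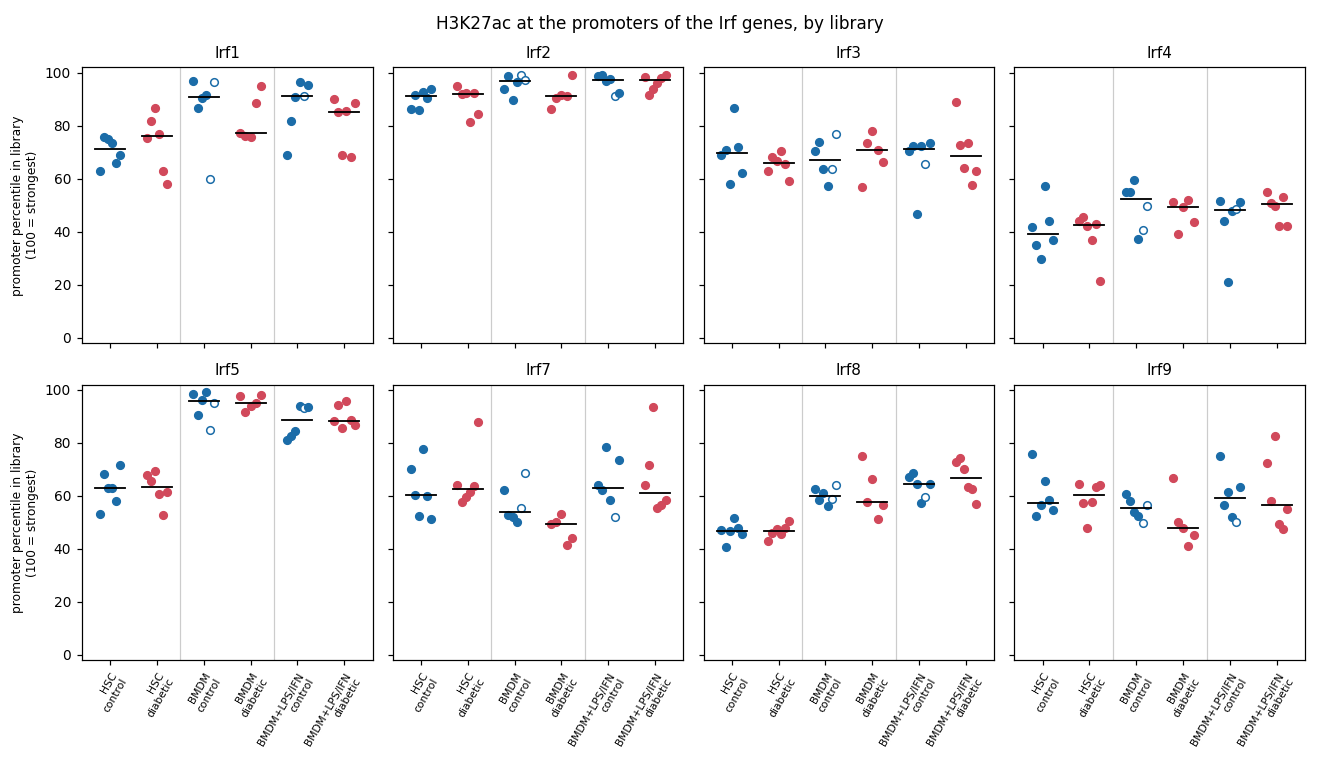
H3K27ac at the 8 IRF promoters, with the percentile within the library on the vertical axis (100 is the strongest promoter) and the 6 groups on the horizontal axis. Each point is a library, blue for control and red for diabetic mice, the open circles are the 3 doubted control BMDM libraries, and black bars are medians. Irf5 lies at 52.7 to 71.8 in HSC and at 81.0 to 99.2 in BMDM.

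H3K27ac at the promoters of Irf5, Irf8 and Irf1 was lower in control HSC than in control unstimulated BMDM, and that of Irf5 and Irf8 was lower in diabetic HSC than in diabetic unstimulated BMDM. The control comparison called 3 of the 8 genes, all lower in HSC, at an adjusted p under 0.05 in limma, where 14.6% of 16981 promoters tested were called in either direction. The diabetic comparison called 2, against 14.3% of promoters. The median difference of the 8 genes was -0.28 in control and -0.21 in diabetic cells, beside medians of 0.01 and 0.00 over all promoters.

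Irf5 had the largest difference of the family. Its percentile was 53.1 at the lowest, 62.9 at the median and 71.8 at the highest in control HSC, and 85.0, 95.7 and 99.2 in control unstimulated BMDM. In diabetic HSC it was 52.7, 63.4 and 69.5, and in the 5 diabetic unstimulated BMDM libraries it was 97.8, 91.7, 93.8, 95 and 97.9. Every unstimulated BMDM library stood above every HSC library, with a gap of over 10 percentiles in both comparisons. The groups of 6.85% of all tested promoters did not overlap in the control comparison, and of 10.2% in the diabetic one. The control means were 62.8 ± 6.73 (SD, n = 6) in HSC and 94.1 ± 5.46 (n = 6) in BMDM, a difference of -1.40 in normal score (SE 0.181, limma adjusted p = 1.11e-06). The diabetic means were 62.9 ± 6.11 (n = 6) and 95.2 ± 2.67 (n = 5), a difference of -1.39 (SE 0.190, limma adjusted p = 3.62e-06). Without the 3 doubted libraries the control difference was -1.59 (limma adjusted p = 3.75e-07). In these bulk samples fewer cells of a type and less signal per cell cannot be told apart.

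Irf8, the lineage factor of monocytes and dendritic cells, differed by less. Its percentile was 40.7 at the lowest, 46.8 at the median and 51.5 at the highest in control HSC against 56.0, 60.02 and 64.1 in control unstimulated BMDM. In diabetic HSC it was 43.0, 46.7 and 50.6, against 74.9, 57.8, 66.5, 51.2 and 56.7 in the diabetic unstimulated BMDM libraries. HSC and BMDM did not overlap in either comparison, although the lowest diabetic BMDM library and the highest diabetic HSC library were under 1 percentile apart. The difference was -0.34 (SE 0.0949, limma adjusted p = 0.0111) in control and -0.38 (SE 0.0995, limma adjusted p = 0.00755) in diabetic cells. Without the doubted libraries the control value was -0.33 (limma adjusted p = 0.0443), and with promoters ranked by the fold over input neither comparison passed (limma adjusted p = 0.521 and 0.191).

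Irf1, the interferon-γ responsive activator, had percentiles of 63.0, 71.2 and 75.7 (lowest, median and highest) in control HSC and of 59.97, 91.0 and 96.7 in control unstimulated BMDM. The groups overlapped because of control unstimulated BMDM replicate 5, at 59.97, which is among the doubted libraries. The difference was -0.74 (SE 0.221, limma adjusted p = 0.0183) with that library and -0.87 (limma adjusted p = 0.00833) without the 3. Leaving out control unstimulated BMDM replicate 1 or replicate 6 gave limma adjusted p = 0.0535 and 0.0593, and ranking by fold gave 0.163. In diabetic cells the difference was -0.34 (limma adjusted p = 0.353), and whether it differed from that in control cells was not tested.

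The other 5 genes did not pass. Irf2 differed by -0.55 (limma adjusted p = 0.0846) in control and -0.20 (limma adjusted p = 0.620) in diabetic cells. The control value was -0.67 (limma adjusted p = 0.0419) without control unstimulated BMDM replicate 3 and -0.41 (limma adjusted p = 0.282) without the doubted libraries. Irf7, which amplifies type I interferon production, was the one member with a higher value in diabetic HSC that came near the threshold, at 57.8, 62.5 and 87.9 (lowest, median and highest) against 49.3, 50.2, 53.3, 41.5 and 44.2 in diabetic unstimulated BMDM. These groups did not overlap, but the difference of 0.49 (SE 0.181) had a limma adjusted p of 0.0607, and 0.0178 when diabetic LPS+IFN-γ replicate 3, which shares the estimate of spread, was left out. In control cells the difference was 0.14 (limma adjusted p = 0.633), or 0.21 (limma adjusted p = 0.543) without the doubted libraries. Irf3, Irf4 and Irf9 had differences between -0.23 and 0.23 in the 2 comparisons.

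Stimulation with LPS+IFN-γ for 16 h changed no IRF promoter past the threshold in either donor type. In diabetic BMDM 0 of the 8 were called by limma and 3 had an unadjusted p under 0.05, where 2.3% of all promoters were called. In control BMDM 0 were called and 1 had an unadjusted p under 0.05, and limma called 0% of all promoters, with 903 at an unadjusted p under 0.05. Without the 3 doubted libraries 0.495% of promoters and still 0 of the 8 were called in control BMDM. The median difference of the 8 was 0.10 in diabetic cells, beside -0.02 over all promoters, and -0.00 in control cells. Of 12 marker promoters of stimulated macrophages, limma called 2 in diabetic BMDM, Ptgs2 and Ccl5, and 0 in control BMDM. Their mean percentile was 40.7 to 64.8 with LPS+IFN-γ and 36.0 to 42.8 without in diabetic BMDM. In control BMDM it was 38.0 to 57.4 and 35.7 to 52.4, so the ranges overlapped in both. The lack of a call at the IRF promoters is thus not shown to be particular to them.

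Irf7 had the highest value among the 8 in diabetic BMDM. The LPS+IFN-γ libraries stood at 55.4, 61.2 and 93.7 (lowest, median and highest), and all 6 were above the highest of the 5 unstimulated libraries, 53.3, where the groups of 2.73% of all tested promoters did not overlap. The difference was 0.55 (SE 0.181, 95% confidence interval 0.19 to 0.92), with an unadjusted p of 0.00399 and an adjusted p of 0.0888 in limma. It passed only when each list was cut to its 20000 strongest peaks, at 0.90 (limma adjusted p = 0.0293), and it was 0.35 without diabetic LPS+IFN-γ replicate 3, the library at 93.7. In control BMDM the difference was 0.22 (limma adjusted p = 0.963), or 0.35 (0.563) without the doubted libraries, and the test of the difference between diabetic and control stimulation gave 0.34 (limma adjusted p = 0.850).

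Irf5 had a value below 0 on stimulation in both donor types. It stood at 81.0, 88.8 and 94.1 (lowest, median and highest) in control LPS+IFN-γ BMDM and at 85.8, 88.4 and 95.8 in diabetic LPS+IFN-γ BMDM, ranges that overlap those of the unstimulated libraries. The difference was -0.50 in control (unadjusted p = 0.00914, limma adjusted p = 0.920) and -0.41 in diabetic cells (unadjusted p = 0.0374, limma adjusted p = 0.24). Without the 3 doubted libraries the control difference was -0.74 (limma adjusted p = 0.0785). Irf9 in diabetic BMDM differed by 0.29 (unadjusted p = 0.0487, limma adjusted p = 0.274) and Irf2 by 0.39 (limma adjusted p = 0.372). Irf1, a gene known to be induced by interferon-γ, had differences of -0.07 in diabetic and -0.02 in control cells, with confidence intervals of -0.54 to 0.40 and -0.46 to 0.43, and -0.16 (limma adjusted p = 0.867) in control cells without the doubted libraries.

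No H3K27ac difference between diabetic and control mice at the 8 promoters passed the threshold in any of the 3 cell states. None was called by limma and none had an unadjusted p under 0.05 in HSC or in BMDM with or without LPS+IFN-γ, and limma called 0% of all promoters in each, with 396, 1002 and 757 at an unadjusted p under 0.05. Irf5 differed by 0.00 between diabetic and control HSC (95% confidence interval -0.36 to 0.37), by -0.01 in unstimulated BMDM (-0.39 to 0.38) and by 0.08 in LPS+IFN-γ BMDM (-0.28 to 0.45). Irf8 differed by 0.00 (-0.19 to 0.20), 0.04 (-0.16 to 0.24) and 0.09 (-0.10 to 0.28) in the same order, the narrowest intervals of the family. The widest departures were -0.37 for Irf2 in unstimulated BMDM (-0.84 to 0.10) and -0.34 for Irf1 in LPS+IFN-γ BMDM (-0.78 to 0.11), and without the 3 doubted libraries these were -0.23 (limma adjusted p = 0.981) and -0.32 (limma adjusted p = 0.996). Over all 8 genes and 3 states the intervals ran from -0.84 to 0.57, so a difference of about the size of the Irf8 cell state effect is outside the interval for some genes and inside it for others. The response to stimulation differed between diabetic and control BMDM by -0.06 for Irf1 to 0.38 for Irf2, with 0 called and 0 at an unadjusted p under 0.05, where limma called 0% of promoters and 1081 had an unadjusted p under 0.05. With the doubted libraries left out those values were 0.09 and 0.13, so that of Irf1 changed sign, and again 0 were called.

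**Figure D2:**
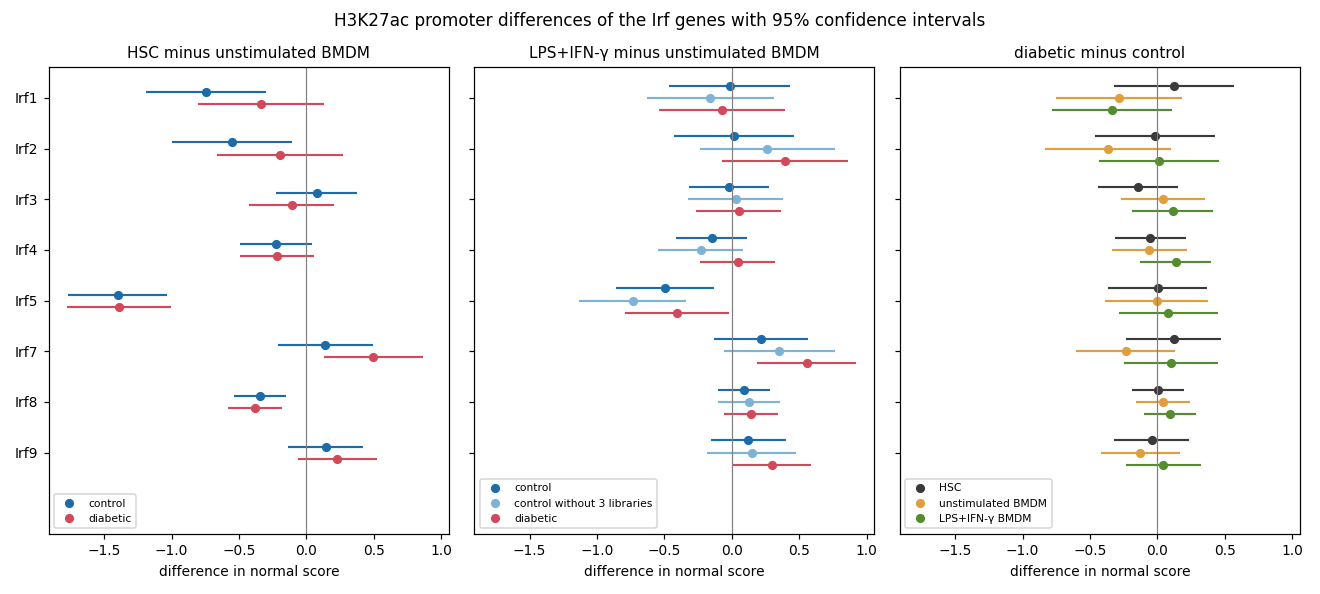
Differences in H3K27ac normal score (horizontal axis) at each IRF promoter (vertical axis) for cell state, stimulation and diabetes, points with 95% confidence intervals from limma. Blue is control and red diabetic in the left and middle panels, light blue the control comparison without the 3 doubted libraries, and the right panel gives diabetic minus control in HSC (black) and in BMDM without (orange) and with LPS+IFN-γ (green). Irf5 at -1.40 and -1.39 stands farthest from 0 in the left panel, and all intervals in the right panel cross 0.

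H3K4me3 at the same promoters gave 1 call over all 8 comparisons. The mean percentiles of the marker promoters overlapped between HSC and unstimulated BMDM in this mark. A promoter without a call here is therefore not shown to differ between the marks. A peak was found in all 35 libraries at Irf2, Irf5 and Irf7, in 34 at Irf1, Irf3 and Irf8, in 33 at Irf9 and in 31 at Irf4. The order of the medians was again led by Irf5 (83.8), Irf2 (83.4) and Irf1 (79.4), while Irf4 (46.5), Irf7 (47.7) and Irf9 (42.0) were lowest. The Irf5 promoter, so different in H3K27ac, had H3K4me3 percentiles of 53.2, 80.9 and 88.4 (lowest, median and highest) in control HSC and 67.5, 84.3 and 93.8 in control unstimulated BMDM, ranges that overlap over most of their length. Its differences were -0.25 (limma adjusted p = 0.620) in control and 0.08 (limma adjusted p = 0.925) in diabetic cells.

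In control cells limma called 1 of the 8 genes, Irf4, lower in HSC, where 4.49% of 17255 promoters were called. Irf4 had no H3K4me3 peak in 3 of the 6 control HSC libraries, and stood at 34.4, 47.7 and 36.3 in the 3 with a peak, whereas the control unstimulated BMDM libraries stood at 80.0, 55.4, 44.0, 48.9, 42.1 and 58.7. The groups overlapped, and the difference was -0.74 (SE 0.189, limma adjusted p = 0.0222). The control HSC lists were also shorter, with 37378 to 109214 peaks against 81003 to 212718 in control unstimulated BMDM, and with the number of peaks as a covariate the difference was -0.50 (limma adjusted p = 0.296). The 3 doubted libraries were chosen in H3K27ac. In H3K4me3 the libraries of the same groups and numbers were left out, without a check of their own. Without them the difference was -0.80 (limma adjusted p = 0.0703), without control unstimulated BMDM replicate 1 -0.60 (limma adjusted p = 0.0604) and without control HSC replicate 6 -0.67 (limma adjusted p = 0.0587).

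Irf2 was called in neither mark. Its H3K4me3 percentile was 86.2, 93.4 and 97.6 (lowest, median and highest) in control HSC and 72.8, 82.3 and 84.9 in control unstimulated BMDM, groups that did not overlap, as was so at 2.8% of all tested promoters. The difference of 0.70 had an unadjusted p of 0.0107 and a limma adjusted p of 0.101 (0.67 and 0.228 without the doubted libraries), and in diabetic cells it was 0.47 (limma adjusted p = 0.397). In diabetic cells limma called 0 of the 8 genes and 0.197% of promoters, and Irf3 (-0.73, limma adjusted p = 0.206) and Irf8 (-0.50, limma adjusted p = 0.201) had an unadjusted p under 0.05.

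No H3K4me3 comparison of stimulation, of diabetes or of their interaction called a member or any other promoter in limma, so 0% were called in each. In diabetic BMDM the unadjusted p was under 0.05 for 2 of the 8 and 1212 promoters, in control BMDM for 0 and 606. Irf7 had the largest value, 0.58 in diabetic BMDM (limma adjusted p = 0.663). Its LPS+IFN-γ libraries stood at 80.6 or more in 3 cases and at 44.9 or less in the other 3, so the mean of 64.5 ± 22.9 (SD, n = 6) describes neither set. For diabetes the counts at an unadjusted p under 0.05 were 0 of 8 in HSC and 0 in unstimulated BMDM, beside 797 and 728 promoters, and 1 in LPS+IFN-γ BMDM, beside 877 promoters. That 1 was Irf5, at 71.2 ± 9.51 (SD, n = 6) in control and 86.9 ± 10.1 (n = 6) in diabetic LPS+IFN-γ BMDM, a difference of 0.61 (95% confidence interval 0.05 to 1.18, unadjusted p = 0.0344, limma adjusted p = 0.926), or 0.63 (limma adjusted p = 0.982) without the doubted libraries. The interaction had 0 of the 8 and 846 promoters at an unadjusted p under 0.05.

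**Figure D3:**
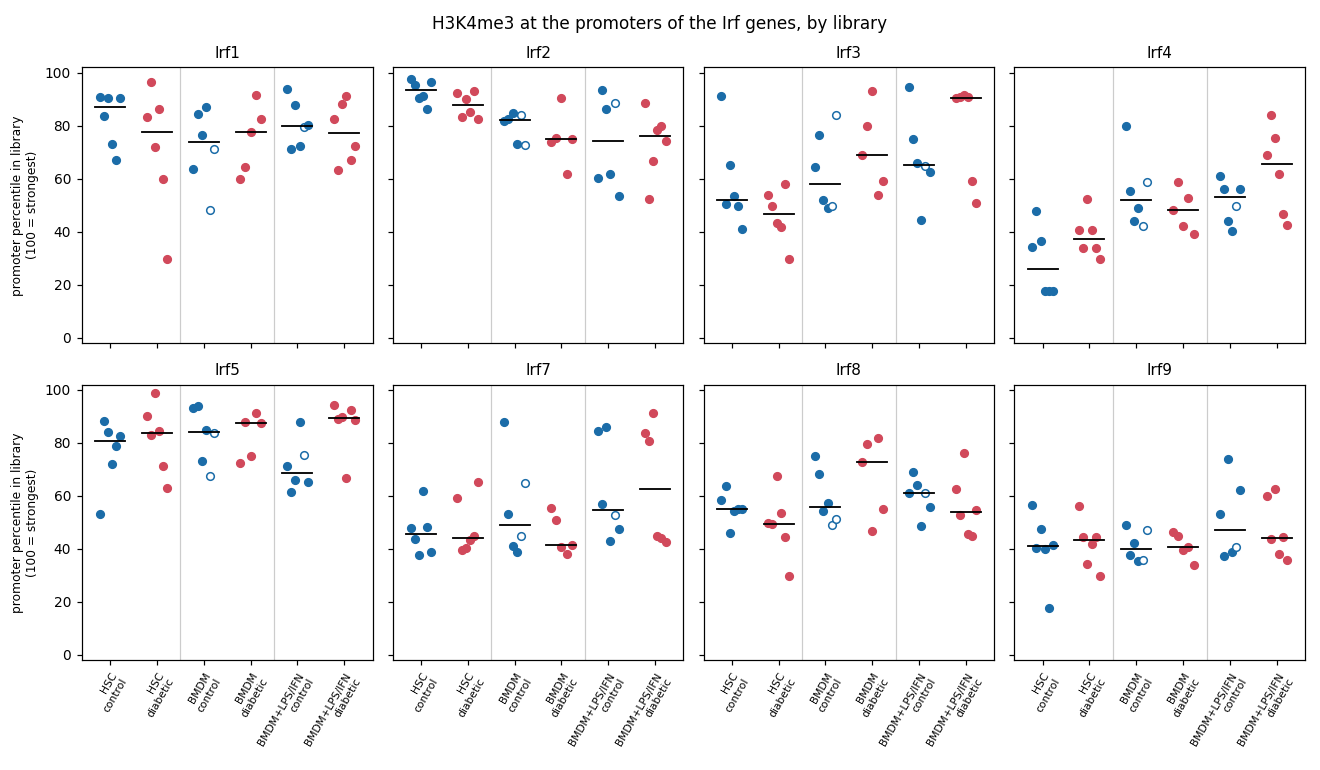
H3K4me3 at the 8 IRF promoters, with the percentile within the library on the vertical axis (100 is the strongest promoter) and the 6 groups on the horizontal axis. Points are libraries, blue for control and red for diabetic mice, open circles the H3K4me3 libraries with the groups and numbers of the 3 doubted H3K27ac ones, and black bars medians. Irf2 stands at 82.6 to 97.6 in HSC, and the 5 points at 29.6 in diabetic HSC come from the library with the shortest list.

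Outside the promoters the loci differed in how much acetylation they held. The H3K27ac peaks covered a median of 28.5% of the Irf8 locus over the 35 libraries, 26.0% of Irf1, 24.7% of Irf3 and 24.2% of Irf9, but 8.01% of Irf2 and 5.66% of Irf4. The median number of distal peaks was 20 at Irf2 and at Irf8, 13 at Irf1 and 1 at Irf9. The Irf1 locus had a distal peak among the 10000 strongest of the list in all 35 libraries, Irf7 in 27 and Irf8 in 22, and Irf3 and Irf9 in none. Of the 23 distal regions, 8 lay at Irf2, 4 at Irf8, 3 each at Irf1 and Irf5, 2 each at Irf3 and Irf4, 1 at Irf7 and 0 at Irf9. The region upstream of Irf1 (chr11:53757410-53766145) and that upstream of Irf7, within Cdhr5 (chr7:141268541-141270282), were held by the 20000 strongest peaks of all 35 libraries.

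The distal regions that differed between cell states were lower in HSC. Limma called 3 of the 23 in control cells and 6 in diabetic cells, all lower in HSC, where 31.1% and 26.6% of all 44614 regions were called in either direction. The share at the IRF loci was below or near that of all regions. Those 44614 include regions at promoters, and a share over distal regions alone was not computed. The median difference of the 23 was -0.19 in control and -0.17 in diabetic cells, and that of all regions in control cells -0.01. Those of Irf5 and Irf8 stood next to promoters that were lower in HSC too.

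The region upstream of Irf8 whose sequence is given above (chr8:120714924-120720611, 5688 bp, in an intron of the overlapping annotation Gm20388) had the largest difference of those called in control cells. Its percentile among regions was 36.2, 57.3 and 68.6 (lowest, median and highest) in control HSC and 79.7, 85.8 and 88.0 in control unstimulated BMDM. In diabetic HSC it was 50.0, 54.6 and 63.1, against 72.3, 94.9, 82.1, 80.0 and 74.3 in diabetic unstimulated BMDM. No HSC library reached any unstimulated BMDM library, and 11.3% of all regions did not overlap in the control and 13.6% in the diabetic comparison. The difference was -0.88 (SE 0.162, limma adjusted p = 4.09e-05) in control and -0.80 (SE 0.169, limma adjusted p = 0.000412) in diabetic cells, and it passed under all 7 alternatives of the processing that kept the same regions. Without the doubted libraries the control value was -0.86 (limma adjusted p = 0.000588). All 12 LPS+IFN-γ libraries stood at 81.5 or above, and stimulation gave 0.26 (limma adjusted p = 0.874) in control and 0.28 (limma adjusted p = 0.352) in diabetic cells. The adjoining region (chr8:120720688-120721571) was called in diabetic cells only, at -0.99 (limma adjusted p = 0.00909), with a peak in 1 of 6 diabetic HSC and 5 of 5 diabetic unstimulated BMDM libraries, and its control difference was -0.62 (limma adjusted p = 0.0837). The adjoining region was formed because 5 of all 35 libraries held it among their 20000 strongest peaks. HSC libraries reached at most percentile 46.9 there and BMDM libraries up to 79.9. It may thus have entered only through BMDM libraries, where it is high, so the peak counts are no separate support for the call.

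At Irf5 a region 1253 bp upstream of the nearest start (chr6:29522244-29525372) and one over an exon and intron of the gene (chr6:29533778-29537722) were both called in both comparisons. The upstream region stood at 31.8, 57 and 78.5 (lowest, median and highest) in control HSC and 59.3, 78.6 and 90.1 in control unstimulated BMDM, ranges that overlap, with a difference of -0.64 (SE 0.197, limma adjusted p = 0.0107). Its diabetic difference was -0.60 (SE 0.206, limma adjusted p = 0.0262). That call was lost without diabetic unstimulated BMDM replicate 1 (limma adjusted p = 0.0609) or replicate 2 (limma adjusted p = 0.0812). It was also lost without diabetic HSC replicate 5 (limma adjusted p = 0.0541). The intragenic region stood at 18.4, 38.9 and 52.3 in control HSC, below every control unstimulated BMDM library (55.1, 65.4 and 71.0), with a difference of -0.71 (SE 0.183, limma adjusted p = 0.00255). In diabetic cells it was -0.76 (SE 0.192, limma adjusted p = 0.0025). The intragenic region was held among the 20000 strongest peaks by 17 of the 35 libraries. HSC libraries reached at most 52.4 there, so it may also have entered only through BMDM libraries, where it is high. Without the doubted libraries the control differences were -0.64 (limma adjusted p = 0.026) upstream and -0.68 (limma adjusted p = 0.013) within the gene. With regions ranked by the fold over input neither was called in control cells. The remaining distal region at Irf5 was not called, at -0.19 (limma adjusted p = 0.696) in control and -0.17 (limma adjusted p = 0.764) in diabetic cells. Acetylation at the Irf5 locus was lower in HSC at the promoter and at 2 of its 3 distal regions. Stimulation gave between -0.03 and 0.18 at these 2 regions, with no call.

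The other 2 regions called in diabetic cells were the one upstream of Irf1, at 80.8, 85.8 and 88.7 (lowest, median and highest) in diabetic HSC against 97.6, 98.7, 95.3, 88.5 and 82.6 (-0.53, limma adjusted p = 0.0244), and one at Irf3 within Scaf1 (chr7:45005253-45009259; -0.70, limma adjusted p = 0.0412). Both groups of values overlapped. The Irf3 region lost its call when any of 8 of the 11 diabetic libraries was left out. Without diabetic unstimulated BMDM replicate 1 the called number fell from 6 to 2, the main Irf8 region and the intragenic Irf5 region, and without replicate 2 it fell to 3.

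One distal region was called for stimulation. It lies upstream of Irf2 (chr8:46732865-46734191, 1327 bp, outside any protein-coding gene, sequence above) and rose with LPS+IFN-γ in diabetic BMDM, 1 of the 23 regions where 4.78% of all regions were called. The 6 diabetic LPS+IFN-γ libraries stood at 54.9, 76.5, 83.5, 15.7, 66.4 and 65.2, and the 5 diabetic unstimulated libraries at 11.4, 4.93, 20.7, 14.5 and 8.28. A peak was present in 5 of the 6 stimulated libraries and in none of the 5 unstimulated ones, and replicate 4 was the stimulated library without one. The region was formed because 5 of all 35 libraries held it among their 20000 strongest peaks. It thus entered through libraries where it is high, so the peak counts are no separate support for the call. The difference was 1.496 (SE 0.309, limma adjusted p = 0.00333), and it passed under all 7 alternatives that formed this region and with each of the 11 libraries left out, but it was not formed when regions were built from the 10000 strongest peaks. The diabetic and control HSC libraries stood at 7.75 to 26.2, with a peak in 2 of 12.

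In control BMDM the same region stood at 51.1, 24.6, 68.6, 59.0, 6.81 and 55.8 with LPS+IFN-γ and at 33.9, 7.48, 29.6, 14.2, 50.8 and 21.4 without. The lowest stimulated and the highest unstimulated value both belong to replicate 5, a number whose 2 libraries are among the doubted ones. The difference was 0.49 (limma adjusted p = 0.868) with all libraries and 0.91 (limma adjusted p = 0.151) without the 3. The region is itself among the 1332 that rose in diabetic BMDM, so the value without the 3 leans toward a response. No distal region of the 23 was called in control BMDM, where limma called 0% of all regions, 2795 of them at an unadjusted p under 0.05, or 1.45% without the 3 doubted libraries. The response of the Irf2 region in diabetic cells exceeded that in control cells by 1.00 (unadjusted p = 0.0224, limma adjusted p = 0.655), so the 2 responses were not shown to differ.

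**Figure D4:**
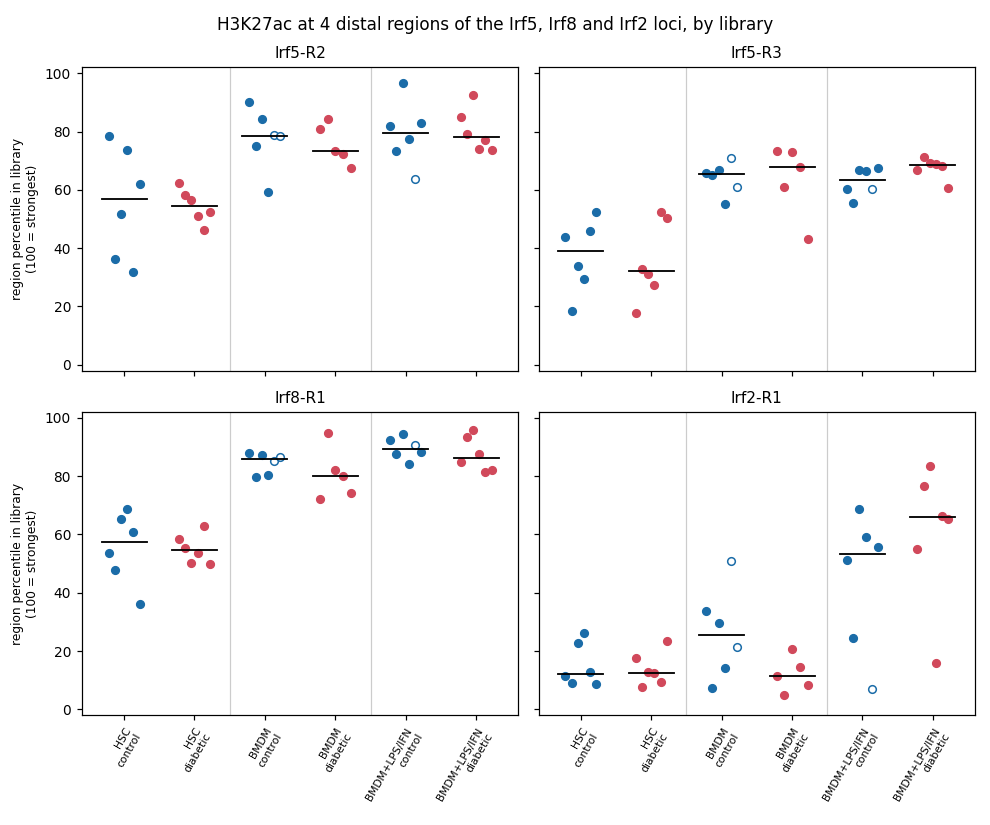
H3K27ac at 4 distal regions, the upstream (Irf5-R2) and intragenic (Irf5-R3) regions of Irf5, the upstream region of Irf8 (Irf8-R1) and that of Irf2 (Irf2-R1), with the percentile among all regions of the library on the vertical axis and the 6 groups on the horizontal axis. Points are libraries, blue for control and red for diabetic mice, open circles the 3 doubted libraries, and black bars medians. Irf8-R1 lies at 36.2 to 68.6 in HSC and 72.3 to 95.9 in BMDM, and Irf2-R1 reaches 54.9 to 83.5 in 5 of the 6 diabetic stimulated libraries.

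For diabetes 0 of the 23 distal regions were called in any cell state, with 0, 1 and 1 at an unadjusted p under 0.05 in HSC, in unstimulated and in stimulated BMDM. Limma called 0% of all regions in each, with 1174, 2713 and 1934 at an unadjusted p under 0.05. Downstream of Irf8, between 20 and 100 kb from the gene, 3 further regions were read as an extension of the locus. The one at chr8:120791496-120795127 was held by 32 of the 35 libraries, and the one at chr8:120831889-120832477 was higher in control HSC than in control unstimulated BMDM by 0.81 (limma adjusted p = 0.0192), or 0.65 (limma adjusted p = 0.107) without the doubted libraries.

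The rest of the pathway was read from lists of genes upstream and downstream of the IRFs, beside calls at 14.6% of all promoters in control and 14.3% in diabetic cells. Of 14 sensing kinases and adaptors, limma called 1 lower in control HSC than in control unstimulated BMDM by H3K27ac, the RNA sensor Ifih1 (-0.67, adjusted p = 0.0474), and 1 lower in diabetic HSC, the adaptor Ticam2 (-0.45, adjusted p = 0.0368). Without the doubted libraries Ifih1 was not called (-0.37, limma adjusted p = 0.306) and the adaptor Traf3 was (-0.83, limma adjusted p = 0.0194). Of 7 interferon receptors and kinases 1 was lower in each, the receptor subunit Ifngr2 (-1.20, limma adjusted p = 0.0106 in control and -1.09, limma adjusted p = 0.0272 in diabetic cells). Of 11 partner factors 3 were lower in control HSC and 4 in diabetic HSC. Spi1, which encodes PU.1, was among them (-1.09, limma adjusted p = 0.0216 in control and -0.999, limma adjusted p = 0.0463 in diabetic cells), as were the Irf2 corepressor Irf2bp2 (-0.90, limma adjusted p = 0.00177 and -0.73, limma adjusted p = 0.0162) and its relative Irf2bpl (-1.12, limma adjusted p = 0.000833 and -1.43, limma adjusted p = 8.69e-05). Batf3, which works with Irf8 in dendritic cells, was the fourth (-0.55, limma adjusted p = 0.00995), in diabetic cells. When the doubted libraries were left out, Ifngr2 (-1.55, limma adjusted p = 0.000706), Spi1 (-1.27, limma adjusted p = 0.0192), Irf2bp2 (-1.04, limma adjusted p = 0.00172) and Irf2bpl (-1.18, limma adjusted p = 0.0026) were called in control cells too.

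Over all promoters limma called 14.6% in the control and 14.3% in the diabetic cell state comparison. A departure of the interferon target genes from these shares was not tested. Several calls among the target genes changed when the doubted libraries were left out. Of the 18 tested, the guanylate-binding protein genes Gbp5 (0.70, limma adjusted p = 0.00333) and Gbp2 (0.63, limma adjusted p = 0.0159) were higher in control HSC and Oas2, of the antiviral RNase L pathway, was lower (-0.50, limma adjusted p = 0.0487), and in diabetic HSC Ifit2 was higher (0.78, limma adjusted p = 0.00116). Without the doubted libraries only Gbp5 of the 3 kept its call in control cells (0.72, limma adjusted p = 0.00921), with Gbp2 at 0.59 (limma adjusted p = 0.0571) and Oas2 at -0.54 (limma adjusted p = 0.0673). Removing them also changes the shared estimate of spread, and in diabetic HSC 1 target was then higher, Ifit2, and 3 were lower, Mx1 (-0.34, limma adjusted p = 0.0424) and the neighbours Psmb9 and Tap1, which share 1 promoter value (-0.66, limma adjusted p = 0.0352). On stimulation of diabetic BMDM limma called 1 target, the chemokine gene Cxcl10 (0.65, adjusted p = 0.0322), and 1 partner factor, Batf (0.56, adjusted p = 0.0326), both higher, where 2.3% of all promoters were called. The median difference of the 18 targets was 0.29 there, and 0.17 in control BMDM with 0 called by limma, or 2 without the doubted libraries, Psmb9 and Tap1 (1.203, limma adjusted p = 0.00895). In the 3 comparisons of diabetic with control cells none of these 4 lists had a call in limma.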

How the data were processed

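H3K27ac and H3K4me3 peaks were called by the authors in each library against its input. The submitters' processing notes name Trim Galore 0.3.3, cutadapt 1.8, FastQC 0.11.3, Bowtie2 2.2.6, Picard 2.18.14 and 2.19.2, MACS2 2.2.7.1, bedtools 2.19.1 and the GRCm38 (mm10) genome. As deposited, each list gives a score (a truncated multiple of the −log10 q), the fold over input at the summit, a −log10 p and a −log10 q, all made by the authors' peak calling. Lists keep peaks with a −log10 q of 1.30 or more, so weaker signal is absent, and read depth was not used here. The deposited score served only to check the file.

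Summits sharing an interval were joined to 1 peak (7828714 in 70 lists). A promoter took the strongest −log10 p of a peak within 1000 bp of any of 93513 GENCODE M21 start sites, ranked within its library and converted to a normal score. Distal regions were the 20000 strongest H3K27ac peaks of each list merged, held by at least 2 libraries, and away from every promoter. Groups were compared with limma 3.58.1 (R 4.3.3, trend) over all 6 groups of a mark, for promoters with a peak in at least 5 of 35 libraries, with Benjamini-Hochberg adjustment at 0.05 over all promoters or regions. The script was checked on simulated data. Python 3.11.15, pandas 2.3.3 and scipy 1.17.1 did the rest. The 8 genes, the pathway lists and the 3 doubted libraries were chosen with earlier results of these data known. Named are the 8 genes and, for each locus and comparison, at most the 2 called regions with the smallest p. Alternatives changed the ranking column, scale, threshold, list length, filter, window, overlap, region building, peak-number covariate, replicate block and libraries used.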

Additional observations from a re-analysis of the deposited data

Results flagged for a closer look

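In 6 of the 96 sets of libraries (8 genes, both marks, 6 groups), 1 library stood apart from the others of its group, by a gap of more than Dixon's 95% critical value. Chance alone gives about 1 such set in 20. Diabetic HSC replicate 6 was apart at 2 genes in H3K27ac, with Irf4 at percentile 21.6, where it has no peak, and Irf7 at 87.9. Control LPS+IFN-γ BMDM replicate 3 was apart at Irf3 (46.6) and at Irf4 (20.9, no peak). Control unstimulated BMDM replicate 5, among the doubted libraries, stood at 59.97 at Irf1 in H3K27ac, and diabetic LPS+IFN-γ BMDM replicate 4 stood at 66.9 at Irf5 in H3K4me3.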

How the results depend on the processing

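Ranking by the fold over input left 1 called H3K27ac promoter of 3 in the control and 1 of 2 in the diabetic cell state comparison (Irf5 in both), 0 of 1 in H3K4me3, and 1 of 3 control and 3 of 6 diabetic distal regions. The H3K4me3 call in control cells (Irf4) became 0 with the peak-number covariate, without the 3 doubted libraries, with the 20000 strongest peaks and, chosen after seeing the data, without those libraries with the replicate block, became 2 with no filter, and ran from 0 to 1 with single libraries left out. The 20000 strongest peaks gave 1 H3K27ac call, Irf7, for diabetic stimulation. Regions built from the 10000 strongest peaks gave 2 calls in place of 6 for diabetic cell state and 0 in place of 1 for diabetic stimulation, and single libraries left out gave 2 to 7 for the former. No call was reversed. Uncalled differences for diabetic stimulation changed sign at Irf3 (-0.17 by fold, -0.083 to 0.12 with single libraries left out), Irf1 (0.11 by fold, -0.15 to 0.087) and Irf4 (-0.049 at a −log10 q of 5 or more, -0.0051 to 0.079). The causes were not tested.

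The labels do not say whether equal replicate numbers mark the same animal, and the main comparisons were unpaired. In no comparison did every same-numbered pair correlate above 0.1 (for example 4 of 5 pairs in H3K27ac diabetic stimulation, 0.0394 to 0.347). That does not settle whether libraries share an animal. With the replicate block the called promoters stayed 3 and 2 in H3K27ac cell state and 1 in H3K4me3, and the called distal regions stayed 3, 6 and 1 for control cell state, diabetic cell state and diabetic stimulation. Peak lists limit what is seen, since signal under the threshold is tied at the bottom and ranks do not measure a change shared by all promoters.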

Other observations

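For each IRF gene the promoters whose H3K27ac percentile varied most alike over the 35 libraries were named by Spearman correlation, as a description, since the libraries share 6 groups and depths. Irf8 had the closest, with Gpnmb (rho 0.924), Stra6l (0.918) and Il21r (0.918), and Irf5 had Ccnd1 (0.891), Fam20c (0.877) and Ankrd33b (0.868). The highest value was 0.840 for Irf7 (Tnfrsf14), 0.818 for Irf9 (Lrrc61), 0.798 for Irf1 (Ninj1), 0.731 for Irf2 (Mcidas), 0.721 for Irf4 (Rasgrp3) and 0.704 for Irf3 (Lgals8).

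In H3K4me3 the kinase gene Tbk1, which phosphorylates Irf3, was the only 1 of the 14 sensing kinases and adaptors called by limma. It was higher in control HSC than in control unstimulated BMDM by 0.81 (limma adjusted p = 0.0305), and it was not called without the 3 doubted libraries. In that comparison 4.49% of all promoters were called. The control HSC lists were also the shorter ones, with 37378 to 109214 peaks against 81003 to 212718.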
